A study of Mus musculus with 35 samples.

Results

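Interscapular brown adipose tissue (iBAT) of mice kept at 6 °C for 5 days was compared with iBAT of mice kept at 6 °C for 6 hours, so that tissue with days of cold behind it was set against tissue in its first hours of cold at the same temperature and in the same housing. The comparison rests on 10 of the 35 libraries of the series, 5 for each duration, chosen by the duration given in the labels, and it covers all genes. Each library came from one iBAT pad of a separate male C57BL/6J mouse of 9-10 weeks, raised at 24 ± 2 °C with 12 hours of light and 12 hours of dark. In the cold, all 10 mice lived singly in static cages without nesting material. The remaining groups, 5 room temperature (RT) controls and 5 mice each at 1, 2, 3 and 4 days of cold, enter below only as levels, with no test.

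Brown adipocytes burn fuel for heat. Noradrenaline from sympathetic nerves acts on beta-adrenergic receptors, cAMP activates protein kinase A (PKA), lipolysis releases fatty acids, and these feed and open uncoupling protein 1 in the mitochondrial inner membrane. The first hours of cold are known for a burst of PKA target transcription. Over days, the tissue is known to rebuild its lipid stores while it burns them, and to recruit new adipocytes from stromal progenitors with macrophages close by.

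RNA was read from the ends of polyadenylated transcripts, and levels are given as CPM, the counts of a gene per 1000000 counts of its library, scaled by trimmed mean of M values (TMM) factors over the whole series. Log2 fold changes (log2FC) are 5 days over 6 hours, with their standard error (SE), from a fit of the 10 libraries alone, and a gene was called when its Benjamini-Hochberg adjusted p was below 0.05 in edgeR's quasi-likelihood test. The 10 libraries held between 3852831 and 5709449 counts, so that 1 count was at most 0.26 CPM. Mitochondrially encoded genes took 41.5% to 42.6% of the counts after 6 hours and 33.6% to 44.6% after 5 days, a difference of -2.01 percentage points that was within the spread between mice (exact two-sided permutation test, p = 0.365, n = 5 each). Without 5-day mouse 1, which had the lowest share, the difference was -0.36 percentage points, and without 5-day mouse 2 it was -3.11 percentage points. Per-mouse values follow the order of the replicate numbers, and the mice are called 6-hour mouse 1 to 5 and 5-day mouse 1 to 5. In whole tissue, fewer cells of a type and less RNA per cell cannot be told apart. Duration of cold also cannot be told apart from time of day, because the hour of tissue collection is not given.

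Of 10294 genes tested, 1952 were higher after 5 days (19%) and 1735 were lower (16.9%), and the CPM of the groups did not overlap for 2401 genes (23.3%). The median log2FC over all genes tested was -0.008. The first principal component held 49.28% of the variance and separated the groups, while the next held 8.3%. At least 2-fold differences were called for 655 genes higher and 363 lower, and at least 4-fold differences for 119 higher and 34 lower. Brown adipocyte markers were present in every library: all 13 passed the filter on counts, and their summed level was 28770 to 36040 CPM after 6 hours and 22770 to 27400 CPM after 5 days.

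**Figure D1:**
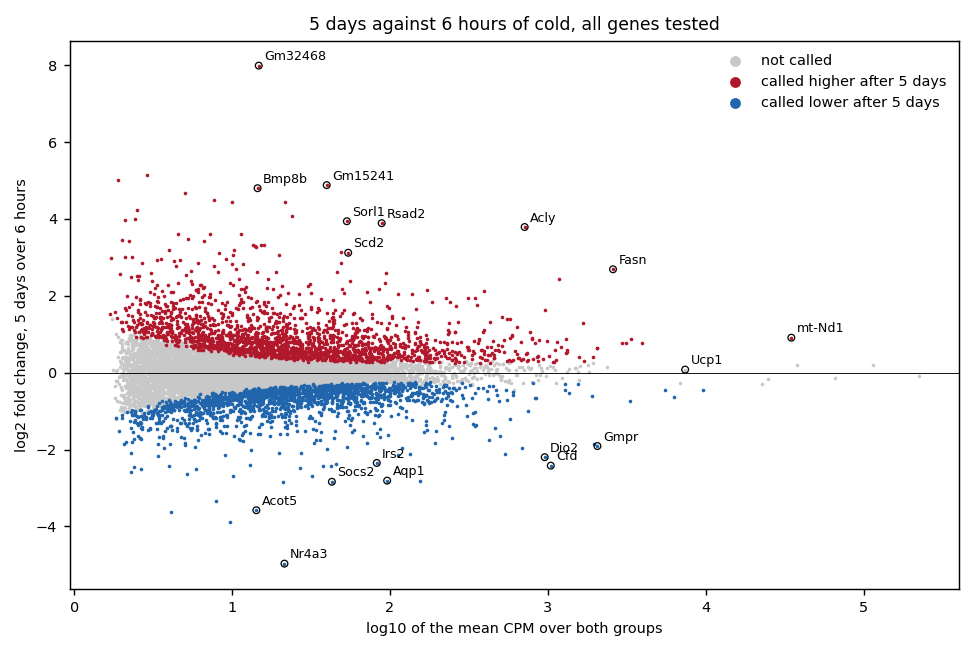
Log2 fold change of 5 days over 6 hours of cold (vertical) against the log10 of the mean CPM over both groups (horizontal) for the 10294 genes tested; red points were called higher after 5 days (1952), blue points lower (1735), grey points were not called, and circled genes are named. Acly and Fasn stand out as abundant genes with a large positive change, Nr4a3 has the most negative labelled value, and Ucp1 lies near 0.

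Several transcripts known for the first hours of cold were lower after 5 days. Nr4a3 and Nr4a1 encode orphan nuclear receptors that cAMP switches on within minutes to hours. Nr4a3 (chr4:48045153-48086447, GRCm38) measured 15.6, 56.4, 31.7, 59.0 and 45.0 CPM in the 6-hour mice and 1.51, 0.883, 2.15, 0.783 and 1.21 CPM in the 5-day mice. No 5-day mouse came near the lowest 6-hour mouse, and the log2FC was -4.97 (SE 0.35, adjusted p = 1.8e-09), the most negative of all genes named here. Nr4a1 (chr15:101254269-101274795) measured 23.7, 73.4, 73.5, 98.7 and 50.8 CPM after 6 hours and 15.6, 9.93, 12.5, 3.53 and 17.3 CPM after 5 days, a log2FC of -2.44 (SE 0.31, adjusted p = 4.2e-06). The 5-day means of both genes, 1.31 and 11.8 CPM, lay beside the RT means of 1.31 and 14.9 CPM.

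Dio2, the deiodinase that turns thyroxine into active thyroid hormone inside the cell, was nearly uniform among the 6-hour mice at 1477, 1629, 1519, 1618 and 1613 CPM. After 5 days it measured 378, 415, 352, 193 and 369 CPM, which was 4.59-fold lower (log2FC -2.20, SE 0.15, adjusted p = 1.5e-09). Its 5-day mean of 341 CPM was still above the RT mean of 36.3 CPM. Ppargc1a, the coactivator of mitochondrial gene expression, measured 408, 882, 676, 804 and 989 CPM after 6 hours and 248, 218, 223, 168 and 336 CPM after 5 days (log2FC -1.65, SE 0.19, adjusted p = 1.2e-06), with an RT mean of 60.1 CPM. The 5-day and RT groups were not tested against each other.

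Ucp1 did not follow these genes. It measured 6874, 6772, 6621, 6877 and 8938 CPM in the 6-hour mice and 5802, 7478, 7987, 8859 and 7929 CPM in the 5-day mice. The groups overlapped, and the log2FC was 0.08 (SE 0.13, adjusted p = 0.657). Both means, 7216 and 7611 CPM, were far above the RT mean of 1897 CPM. Ffar4, a receptor for long-chain fatty acids, was not called either, at a mean of 93.1 ± 27.0 CPM after 6 hours and 76.3 ± 32.6 CPM after 5 days (SD, n = 5 each), although leaving out 5-day mouse 3 gave a log2FC of -0.54 with adjusted p = 0.0416. Of the 6 genes that the study labels as acute, 4 were lower and none was higher; that list was chosen on these samples, so its direction is not independent evidence.

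In a list of immediate early factors and other cAMP-induced genes, 15 were tested. Of these, 7 were lower (46.7%, against 16.9% of all genes) and 1 was higher (6.67%, against 19%), with a median log2FC of -0.30. The 7 not called included Jun and Junb, and Fos and Fosb missed the filter on counts. The lower ones were Nr4a3, Nr4a2, Fosl2, Crem, Klf4, Sik1 and Irs2, the last an insulin receptor substrate. Fosl2, an AP-1 subunit, fell from 51.2 ± 11.2 to 14.4 ± 3.28 CPM (log2FC -1.82, SE 0.17, adjusted p = 7.5e-08), and Crem, which encodes cAMP-responsive activators and repressors, fell from 17.8 ± 1.58 to 9.90 ± 0.581 CPM (log2FC -0.84, SE 0.15, adjusted p = 1.5e-04). Egr1, a zinc finger factor of the same class, went the other way, from 4.79 ± 1.89 to 11.5 ± 5.47 CPM (log2FC 1.27, SE 0.32, adjusted p = 0.00387), with 3 of 5 5-day mice above all 6-hour mice.

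**Figure D2:**
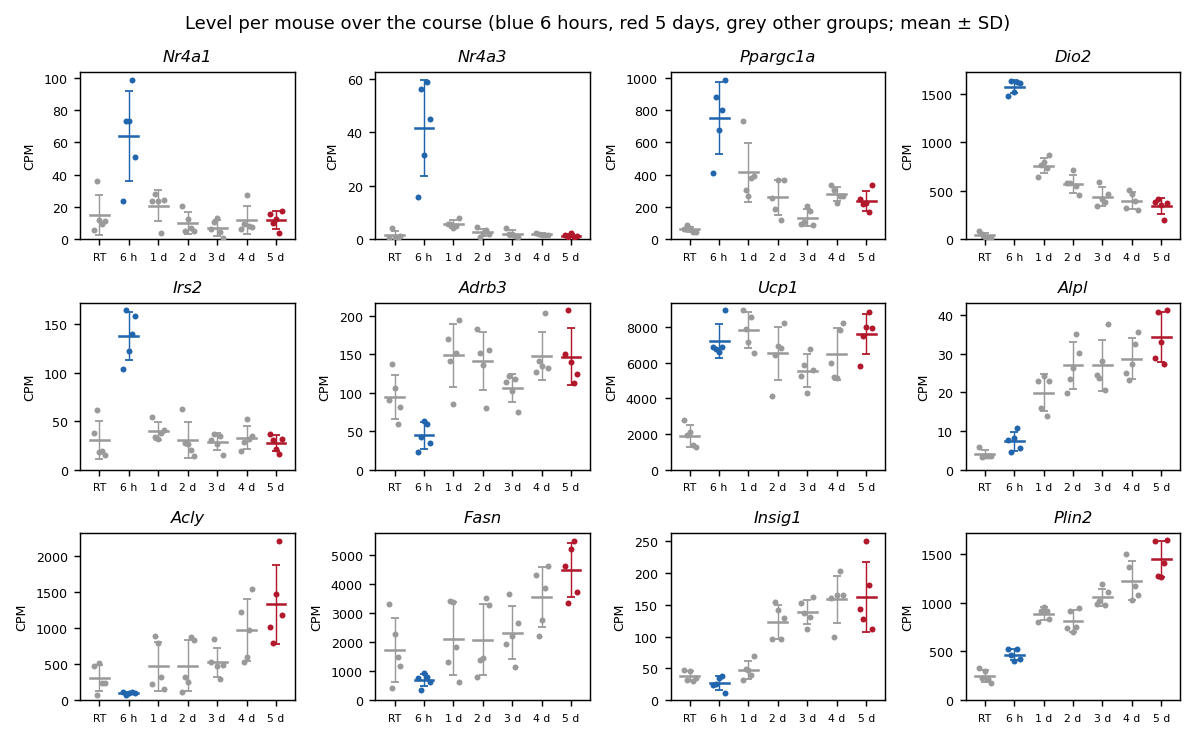
CPM of 12 genes in each mouse (points) for all 7 groups, with the group mean (bar) and SD (whiskers, n = 5); 6 hours is blue, 5 days red, the other groups grey. Nr4a1, Nr4a3, Ppargc1a, Dio2 and Irs2 peak after 6 hours, Ucp1 is at similar levels in both coloured groups, and Adrb3, Alpl, Acly, Fasn, Insig1 and Plin2 have every 5-day mouse above every 6-hour mouse.

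The promoters of 3 of these genes are shown because they carry the letters that cAMP-responsive factors are known to read. Each window runs from 250 bases before to 50 bases after a RefSeq transcript start (GRCm38.p6), 5′ to 3′ on the gene's strand, and capitals mark TGACG, which reads as CGTCA where it lies on the other strand, and the full element TGACGTCA, which contains TGACG on both strands. The Dio2 window (chr12:90738989-90739288, minus strand) holds 1 full element, the Nr4a1 window (chr15:101266596-101266895, plus strand) holds 4 copies of TGACG and no full element, and the Nr4a3 window (chr4:48045055-48045354, plus strand) also holds 4 copies and no full element.
Dio2: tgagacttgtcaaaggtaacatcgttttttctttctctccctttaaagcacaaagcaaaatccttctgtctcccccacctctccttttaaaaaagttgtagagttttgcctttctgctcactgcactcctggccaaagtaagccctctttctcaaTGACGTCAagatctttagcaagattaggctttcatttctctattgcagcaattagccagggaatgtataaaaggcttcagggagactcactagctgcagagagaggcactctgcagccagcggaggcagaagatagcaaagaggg
Nr4a1: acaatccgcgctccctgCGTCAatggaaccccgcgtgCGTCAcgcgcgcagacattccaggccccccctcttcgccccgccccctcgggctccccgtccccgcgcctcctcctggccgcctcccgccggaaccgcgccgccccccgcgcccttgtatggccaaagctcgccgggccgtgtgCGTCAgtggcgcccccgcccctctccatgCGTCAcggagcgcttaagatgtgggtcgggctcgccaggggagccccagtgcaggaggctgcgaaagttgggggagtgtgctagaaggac
Nr4a3: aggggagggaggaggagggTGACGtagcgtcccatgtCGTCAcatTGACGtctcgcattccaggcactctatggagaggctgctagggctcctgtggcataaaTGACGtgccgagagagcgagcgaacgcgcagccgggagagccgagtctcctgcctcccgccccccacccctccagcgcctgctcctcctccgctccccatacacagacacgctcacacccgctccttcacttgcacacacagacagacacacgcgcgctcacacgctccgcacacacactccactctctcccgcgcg

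At least one RefSeq window was found for 7961 of the genes tested. TGACG stood in a window of 37.1% of these, of 39.2% of the genes called lower, of 31.8% of those called higher and of 33.3% of those called at least 2-fold lower. TGACGTCA stood in 3.78% of the tested genes, 3.97% of those called lower and 2.98% of those called higher. Among all 27025 genes with a window the shares were 23% and 2.03%. These are descriptions of letters in a window, not of binding.

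The adrenergic input side moved in both directions. Adrb3, the main beta-adrenergic receptor of mouse adipocytes, measured 22.9, 41.8, 63.0, 59.5 and 34.1 CPM after 6 hours and 151, 208, 140, 112 and 124 CPM after 5 days. Every 5-day mouse was above every 6-hour mouse (log2FC 1.74, SE 0.20, adjusted p = 1.4e-06), and the RT mean was 94.5 CPM. Adrb1 was not called (46.9 ± 3.50 and 39.5 ± 5.30 CPM). Gnas, the stimulatory G protein, was higher (log2FC 0.77, SE 0.13, adjusted p = 7.7e-05), as were Gnai1, an inhibitory G protein (0.81, SE 0.14), and Prkar2b, the RIIβ regulatory subunit of PKA (0.87, SE 0.12). Adcy3 and Adcy6, which make cAMP, were lower by log2FC -0.50 and -1.0, Prkar1a, another regulatory subunit, by -0.71, and Rgs2, which shortens G protein signals, by -1.26. Pde4d and Pde7b, which break cAMP down, were also lower (-1.02 and -0.99), while the other 6 phosphodiesterases tested were not called. Over the whole list, 5 of 25 tested members were higher and 6 lower, close to the shares of all genes.

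Thermogenic genes outside the uncoupling route were mixed. Alpl, the alkaline phosphatase placed in creatine cycling, measured 7.56, 4.41, 8.27, 10.6 and 5.46 CPM after 6 hours and 29.0, 40.8, 32.9, 27.4 and 41.2 CPM after 5 days (log2FC 2.25, SE 0.20, adjusted p = 2.3e-08). Ckb, the cytosolic creatine kinase, rose less (0.58, SE 0.13), and its 5-day mean of 256 CPM was below the means of 1 to 4 days, which were 452 to 792 CPM. Atp2a2, the SERCA2 calcium pump, fell (-0.39, SE 0.09, adjusted p = 0.00126). Of the nuclear receptor partners, Ppara rose (0.84, SE 0.12) and Esrra fell (-0.37, SE 0.10). In all, 8 of 27 tested thermogenic effectors were higher (29.6%, against 19% of all genes) and 7 were lower (25.9%, against 16.9%).

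Fatty acid synthesis gained on a broad front. Of its 18 enzymes, all tested, 12 were higher and none was lower, with a median log2FC of 1.03. Acly, which makes cytosolic acetyl-CoA from citrate, measured 117, 67.1, 98.6, 108 and 91.8 CPM after 6 hours and 1015, 786, 1467, 2206 and 1184 CPM after 5 days. The lowest 5-day mouse was far above the highest 6-hour mouse, and the fold was 13.9 (log2FC 3.79, SE 0.22, adjusted p = 1.7e-10). Fasn, fatty acid synthase, measured 752, 364, 943, 786 and 636 CPM after 6 hours and 4625, 3333, 5211, 5500 and 3720 CPM after 5 days (log2FC 2.69, SE 0.20, adjusted p = 2.5e-09).

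For both enzymes the 6-hour level was below the RT level, with RT means of 306 CPM for Acly and 1730 CPM for Fasn. The contrast therefore spans a trough at 6 hours and the highest group mean of the course at 5 days. Elovl3, the elongase that marks cold-exposed brown fat, differed in this, with an RT mean of 5.79 CPM, 144 ± 54.7 CPM after 6 hours and 549 ± 36.2 CPM after 5 days (log2FC 1.94, SE 0.18, adjusted p = 7.1e-08). Scd2, a desaturase, rose from 11.4 ± 3.60 to 97.3 ± 29.2 CPM (3.12, SE 0.21), and its more abundant relative Scd1 rose from 2326 ± 404 to 3916 ± 708 CPM (0.76, SE 0.14). Slc25a1, the carrier that exports mitochondrial citrate, rose by 1.83 (SE 0.18). Fads1, Fads2 and Fads3, the desaturases of polyunsaturated fatty acids, were not called.

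The regulators changed in both directions. Thrsp, a lipogenic protein induced by thyroid hormone and carbohydrate, rose from 365 ± 85.8 to 1979 ± 643 CPM (log2FC 2.45, SE 0.19, adjusted p = 3.6e-09). Srebf1 and Mlxipl, which encode the sterol-regulated factor SREBP1 and the carbohydrate-regulated factor ChREBP, rose by 1.18 (SE 0.15) and 0.60 (SE 0.14). Mlx, the partner of ChREBP, and Nr1h3, the oxysterol receptor LXRα, fell by 0.54 and 0.47 on the log2 scale. Genes of glycogen and pentose phosphate metabolism were also higher in most cases. Of 13 such genes 10 were higher (76.9%, against 19% of all genes) and none lower. The higher ones included Pgd (1.95, SE 0.13) and Tkt (1.45, SE 0.17) of the pentose phosphate pathway. Both sides of glycogen turnover were among them, with Pygl, a glycogen phosphorylase (1.94, SE 0.15), and with Gys1 and Gbe1, which build glycogen. A link of these genes to fatty acid synthesis was not tested.

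Within the 5-day group, 5-day mouse 4 had the highest CPM of the group for 17 of the 24 tested fatty acid synthesis genes, where it was highest for 19.9% of all genes tested. Acly in this mouse was 2206 CPM against 786 to 1467 CPM in the others.

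Cholesterol synthesis genes were higher in most cases. Of 19 tested enzymes, 12 were higher and 1 was lower (median log2FC 0.79). Nsdhl and Dhcr7, late steps of the pathway, rose by log2FC 2.32 (SE 0.19) and 2.27 (SE 0.28), and Hmgcs1, an early step, by 0.79 (SE 0.12). Insig1, the sterol-sensing brake on the SREBP factors, measured 24.2, 26, 34.9, 38.5 and 11.7 CPM after 6 hours and 143, 127, 251, 181 and 111 CPM after 5 days (2.6, SE 0.24, adjusted p = 5.2e-08). Abcg1, a sterol exporter, rose by 1.83 (SE 0.27).

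The Hmgcs1 promoter is shown because it holds the one sterol-element match, TCACNCCAC on either strand, among the named cholesterol genes; its window lies at chr13:119690101-119690400 (plus strand, GRCm38.p6), and capitals mark this match and one TGACG match on the other strand. The sterol letters stood in a window of 1.44% of tested genes, 1.88% of those called higher and 1.15% of those called lower.
Hmgcs1: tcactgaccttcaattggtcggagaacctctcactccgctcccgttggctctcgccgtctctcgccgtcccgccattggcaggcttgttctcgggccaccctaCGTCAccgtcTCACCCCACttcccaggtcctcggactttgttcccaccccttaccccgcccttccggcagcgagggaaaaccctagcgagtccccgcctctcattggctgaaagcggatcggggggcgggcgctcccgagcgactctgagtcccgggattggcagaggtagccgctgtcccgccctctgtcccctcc

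Genes of fatty acid oxidation were also higher in most cases. In the mitochondria, 10 of 15 beta oxidation genes were higher and none was lower (median log2FC 0.34), with Hadha, the trifunctional protein subunit, at 0.66 (SE 0.10) and Acadl, long-chain acyl-CoA dehydrogenase, at 0.42 (SE 0.10). Of 7 tested genes for the carnitine shuttle and acyl-CoA activation, 5 were higher and 1 lower, and without 6-hour mouse 1 the first count was 3. Cpt2, the inner membrane carnitine transferase, rose from 153 ± 17.1 to 383 ± 35.8 CPM (1.33, SE 0.11, adjusted p = 6.1e-09). The activating enzymes parted: Acsl5 rose from 147 ± 62.5 to 640 ± 145 CPM (2.13, SE 0.22), and Acsl1 fell from 2299 ± 210 to 1487 ± 144 CPM (-0.62, SE 0.11, adjusted p = 1.2e-04). In peroxisomes, 12 of 17 oxidation genes were higher and none lower (median 0.62), including Ehhadh, the bifunctional enzyme (1.87, SE 0.24), and Crot, which exports medium-chain acyl groups (1.45, SE 0.18).

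Acyl-CoA thioesterases, which release free fatty acids from CoA, changed in opposite directions. Acot5 measured 12.3, 25.6, 23, 38.2 and 32.2 CPM after 6 hours and 1.30, 3.31, 1.51, 1.37 and 3.42 CPM after 5 days (log2FC -3.58, SE 0.31, adjusted p = 2.0e-08). Acot2, its neighbour on chromosome 12, measured 23.7, 29.5, 29.9, 34.5 and 18.8 CPM after 6 hours and 76.1, 102, 54.5, 136 and 212 CPM after 5 days (2.10, SE 0.26, adjusted p = 2.6e-06). These genes are closely related copies, and how reads shared between copies were counted is not given in the sources used here. Acot11, a thioesterase known to be cold-inducible in brown fat, rose from 53.2 ± 14.9 to 222 ± 48.0 CPM (2.06, SE 0.17).

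Lipid handling around the droplet was divided, with 5 of 16 tested genes higher and 5 lower (31.2% each, against 19% and 16.9% of all genes). Plin2, a droplet coat protein, measured 522, 462, 402, 530 and 425 CPM in the 6-hour mice and 1639, 1277, 1269, 1412 and 1642 CPM in the 5-day mice, with no overlap (log2FC 1.64, SE 0.12, adjusted p = 1.8e-09). Lipe and Mgll, the lipases that follow the first step of triglyceride breakdown, rose by 0.84 (SE 0.11) and 0.82 (SE 0.12), whereas Pnpla2, the lipase of the first step, was not called (1421 ± 103 and 1550 ± 160 CPM). Its coactivator Abhd5 and its inhibitor G0s2 were both lower (-0.38 and -0.52).

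For triglyceride synthesis, 4 of 14 tested enzymes were higher and 4 lower (28.6% each, against 19% and 16.9% of all genes). Agpat2 and Gpd1, which build the glycerol lipid backbone, rose by 1.28 (SE 0.12) and 0.88 (SE 0.13). Gk, glycerol kinase, fell from 999 ± 61.8 to 501 ± 70.1 CPM (-0.99, SE 0.11, adjusted p = 5.7e-07), and Dgat1, which adds the last acyl chain, fell from 455 ± 62.7 to 218 ± 6.76 CPM (-1.05, SE 0.11, adjusted p = 1.5e-07). Dgat2, which catalyses the same step, was not called (420 ± 85.8 and 449 ± 91.2 CPM).

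At the capillary, Lpl, lipoprotein lipase, fell from 7659 ± 600 to 4892 ± 1043 CPM (-0.64, SE 0.13, adjusted p = 6.9e-04), and Gpihbp1, which carries it to the vessel lumen, fell from 128 ± 7.60 to 71.6 ± 13.5 CPM (-0.84, SE 0.12). Angptl4, an inhibitor of the lipase, rose from 29.5 ± 1.76 to 57.6 ± 11.4 CPM (0.97, SE 0.13), and Vldlr, a lipoprotein receptor, rose by 1.69 (SE 0.15). Cd36, a fatty acid carrier, was not called (869 ± 111 and 726 ± 18.7 CPM, adjusted p = 0.0587), but was called lower without 6-hour mouse 5 (log2FC -0.32, adjusted p = 0.015), and also with DESeq2, with all 7 groups in one fit and with library size alone (adjusted p = 0.0223, 0.0184 and 0.0314). Mfsd2a, a lysophospholipid transporter, fell from 75.9 ± 16.3 to 14.7 ± 10.6 CPM (-2.37, SE 0.30, adjusted p = 3.7e-06), with an RT mean of 0.229 CPM.

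**Figure D3:**
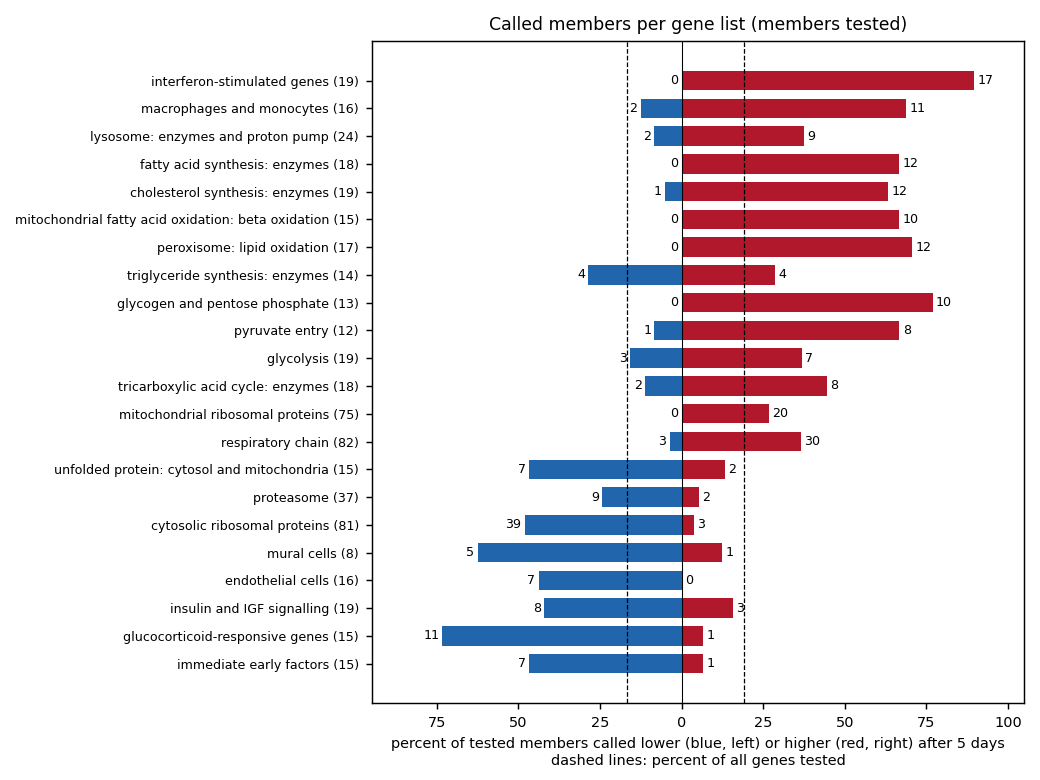
Percent of the tested members of each gene list called higher (red, to the right) or lower (blue, to the left) after 5 days, with the number called beside each bar and the number tested in parentheses; dashed lines mark the shares over all genes tested, 19% and 16.9%. Interferon-stimulated genes (17 of 19 higher) and glucocorticoid-responsive genes (11 of 15 lower) have the largest shares in each direction among the lists drawn.

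Glycolysis genes changed in both directions: of 19 tested, 7 were higher (36.8%, against 19% of all genes). Another 3, Hk2, Pfkfb3 and Pfkp, were lower (15.8%, near the 16.9% of all genes). The Pfkp call was lost without 6-hour mouse 4 or 5-day mouse 2 (adjusted p = 0.0561 and 0.0582). Hk2, the hexokinase that traps glucose, fell from 616 ± 58.3 to 365 ± 64.7 CPM (log2FC -0.75, SE 0.12, adjusted p = 4.8e-05). Pfkfb3, which makes the activator of phosphofructokinase, measured 750, 593, 613, 633 and 680 CPM after 6 hours and 185, 173, 249, 204 and 155 CPM after 5 days (-1.75, SE 0.12, adjusted p = 1.7e-09), with an RT mean of 217 CPM. Slc2a4, the insulin-regulated glucose transporter, was not called (147 ± 19.9 and 163 ± 14.2 CPM). Among the higher ones were Gpi1, the isomerase after hexokinase (1.07, SE 0.12), and Ldha, lactate dehydrogenase A (1.32, SE 0.15).

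Of 12 tested genes for pyruvate entry, 8 were higher and 1 was lower (median log2FC 0.80). Mpc1 and Mpc2, the mitochondrial pyruvate carrier, rose by 1.31 (SE 0.18) and 1.05 (SE 0.13). Pdk1 and Pdk4, kinases that switch pyruvate dehydrogenase off, rose by 1.63 (SE 0.18) and 0.76 (SE 0.22), and Pdp2, a phosphatase that switches it on, fell by 0.69 on the log2 scale (SE 0.11).

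Nuclear genes of the respiratory chain leaned higher: of 82 tested, 30 were higher (36.6%, against 19% of all genes) and 3 lower (3.66%, against 16.9%). The other 49 were not called, and the median log2FC was 0.20. Complex III had 7 of 9 tested members higher and 1 lower, led by Uqcrc2 (559 ± 48.9 to 1024 ± 158 CPM, log2FC 0.88, SE 0.12), and complex I had 12 of 38 higher and 1 lower, led by Ndufb4 (0.98, SE 0.13). Complex IV had 3 of 15 higher (20%, near the 19% of all genes) and 1 lower (6.67%, against 16.9%). Among the higher ones was Cox7a1, the heart and muscle type subunit, from 554 ± 78.6 to 1029 ± 174 CPM (0.90, SE 0.13). Of 75 mitochondrial ribosomal proteins 20 were higher (26.7%, against 19% of all genes), none was lower and 55 were not called, with a median of 0.21. In the tricarboxylic acid cycle, 8 of 18 enzymes were higher and 2 lower, among the latter Idh2, mitochondrial isocitrate dehydrogenase (-0.64). The count of 8 was 4 without 6-hour mouse 2 and 5 without 5-day mouse 4.

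Transcripts of the mitochondrial genome did not move as one. Of 8 tested protein-coding transcripts, 2 were higher and 2 lower (25% each, against 19% and 16.9% of all genes). mt-Nd1, a complex I subunit, measured 22617, 20452, 26872, 25124 and 26637 CPM after 6 hours and 32506, 43321, 42161, 59759 and 49630 CPM after 5 days (log2FC 0.91, SE 0.15, adjusted p = 9.6e-05). mt-Co1, a complex IV subunit, measured 10975, 11027, 10667, 11773 and 11230 CPM after 6 hours and 7101, 8021, 7864, 8718 and 8919 CPM after 5 days (-0.45, SE 0.11, adjusted p = 0.00311). The groups did not overlap for either. Both are cut from one long transcript, and the library kit counts their polyadenylated ends.

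Of 81 tested cytosolic ribosomal protein genes, 39 were lower and 3 higher, with a median log2FC of -0.29. The summed level of all 89 in the table was 11250 to 14010 CPM after 6 hours and 9052 to 10270 CPM after 5 days. At RT this sum was 9747 to 11350 CPM. Rpl9 fell from 157 ± 13.0 to 82.1 ± 2.08 CPM (-0.93, SE 0.10, adjusted p = 2.3e-07). The 3 higher ones were Rpl38 and the paralogs Rpl22l1 and Rpl39l, and the Rpl38 call was lost without 6-hour mouse 1, 3 or 5 or 5-day mouse 3 or 4 (adjusted p = 0.0652 to 0.0821). Ribosomal protein genes have many processed copies in the genome, so reads can be shared with those copies. Proteasome subunits were also lower more often than higher, 9 (24.3%, against 16.9% of all genes) and 2 of 37. The 2 higher ones, Psmb8 and Psmb9, belong to the immunoproteasome. Summed proteasome levels were 2250 to 2468 CPM at RT, 3077 to 3267 CPM after 6 hours and 2815 to 3081 CPM after 5 days. The 5-day mice were thus still above every RT mouse. The count of 9 was 5 without 6-hour mouse 1, and the Psmb8 call was lost without 6-hour mouse 1, 3 or 4 (adjusted p = 0.0507 to 0.0767) or 5-day mouse 5 (0.177).

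Part of the chaperone genes was lower. Hspa8, the constitutive HSP70, measured 360, 509, 444, 419 and 396 CPM after 6 hours and 167, 195, 162, 209 and 231 CPM after 5 days (log2FC -1.13, SE 0.12, adjusted p = 2.5e-07), with an RT mean of 67.1 CPM. Of 15 cytosolic and mitochondrial chaperone genes, 7 were lower (46.7%, against 16.9% of all genes) and 2 higher (13.3%, against 19%). Of 18 tested genes of the endoplasmic reticulum stress response, 5 were lower (27.8%), among them the chaperones Hspa5 (-0.53, SE 0.10) and Hsp90b1 (-0.38, SE 0.10). Another 4 were higher (22.2%, near the share of all genes), among them Trib3 (2.17, SE 0.34) and Ddit3 (0.78, SE 0.20), which belong to its transcriptional arm. Hmox1, the heme-degrading stress enzyme, fell from 21.0 ± 8.11 to 5.16 ± 1.38 CPM (-2.0, SE 0.25), and Gpx3, the secreted glutathione peroxidase, from 1097 ± 83.5 to 282 ± 56.6 CPM (-1.95, SE 0.12, adjusted p = 4.4e-10).

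Clock genes differed strongly between the groups. The core loop pairs activators (Arntl, which encodes BMAL1, with Clock) with repressors (Per and Cry proteins), and Nr1d1 encodes the REV-ERBα repressor of Arntl. Per2 measured 52.1, 59.7, 65.7, 57.6 and 41.5 CPM after 6 hours and 10.8, 5.96, 6.68, 8.42 and 10.5 CPM after 5 days (log2FC -2.69, SE 0.17, adjusted p = 4.4e-10). Arntl measured 15.1, 17.9, 16.1, 22.4 and 15.5 CPM after 6 hours and 6.91, 6.84, 6.68, 1.96 and 5.83 CPM after 5 days (-1.62, SE 0.24, adjusted p = 2.1e-05). Nr1d1 measured 6.26, 6.27, 5.14, 4.72 and 4.37 CPM after 6 hours and 28.3, 21.8, 25, 31.9 and 36.2 CPM after 5 days (2.43, SE 0.18, adjusted p = 2.5e-09).

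None of the 3 genes overlapped between groups, and genes of both arms were lower after 5 days. Of 6 tested activators and genes in phase with them, 3 were lower (50%) and 1 higher (16.7%). Of 12 repressors and output factors, 5 were lower (41.7%) and 2 higher (16.7%). Over all genes the shares were 16.9% lower and 19% higher. Per1 (-2.08, SE 0.23), Tef, an output factor (-1.54, SE 0.12), Cry1 (-1.05, SE 0.16) and Nfil3 (-0.95, SE 0.18) were among the lower ones, and Dbp was not called (11.9 ± 3.44 and 8.73 ± 3.12 CPM), but was lower without 5-day mouse 4 (-0.67, adjusted p = 0.0334). RT means were 1.44 CPM for Arntl, 22.6 CPM for Per2 and 39 CPM for Nr1d1. The hour of the day at tissue collection is not given in the sources used here. Duration of cold and time of day therefore cannot be told apart for these genes, nor for the other genes compared.

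**Figure D4:**
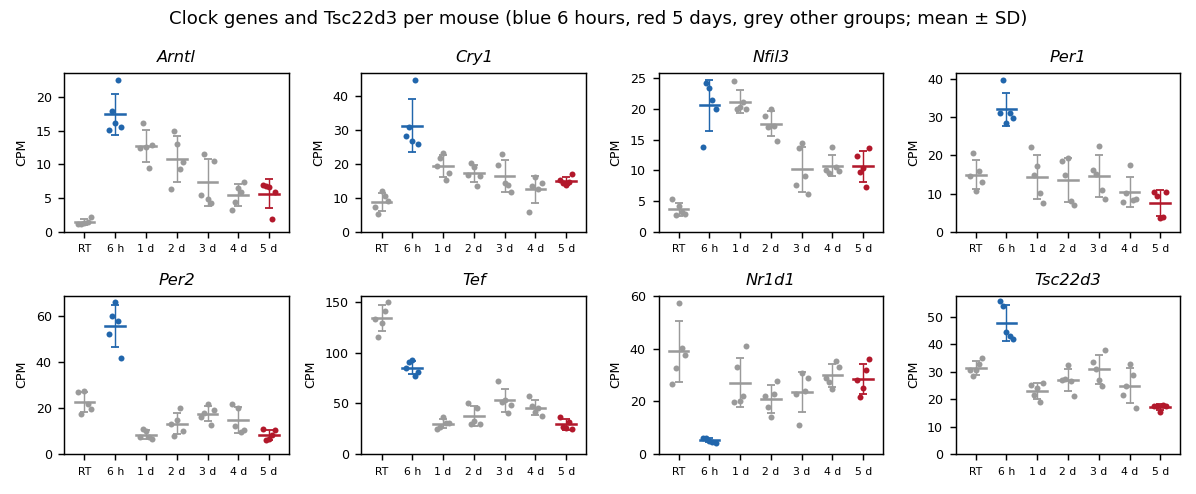
CPM of 7 clock genes and of the glucocorticoid-responsive gene Tsc22d3 in each mouse (points) for all 7 groups, with mean (bar) and SD (whiskers, n = 5); 6 hours is blue, 5 days red, the other groups grey. The 6-hour mean is above all other group means for Per2 and below all others for Nr1d1.

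Glucocorticoid-responsive genes, a list with 1 clock gene (Per1) and several metabolic ones, were mostly lower: 11 of 15 tested members were lower and 1, Mt2, was higher (median log2FC -0.98). The Mt2 call was lost without 6-hour mouse 2 or 4 or 5-day mouse 5 (adjusted p = 0.057 to 0.0653). Tsc22d3, which encodes the anti-inflammatory protein GILZ, fell from 47.8 ± 6.50 to 17.2 ± 1.07 CPM (-1.47, SE 0.13, adjusted p = 1.9e-08), with an RT mean of 31.5 CPM. Fkbp5, a receptor co-chaperone, fell from 13.0 ± 3.42 to 4.30 ± 2.83 CPM (-1.58, SE 0.35), and Ddit4, an inhibitor of mTORC1, from 42.9 ± 13.7 to 15.0 ± 7.11 CPM (-1.51, SE 0.23). All 3 had 5-day values below every 6-hour value.

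Insulin signalling lost several receptor-proximal genes. Irs2, the insulin receptor substrate that cAMP also induces, measured 104, 164, 122, 140 and 158 CPM after 6 hours and 36.5, 30.4, 21.3, 15.7 and 31.2 CPM after 5 days (log2FC -2.35, SE 0.18, adjusted p = 3.5e-09). The groups were far apart. Irs1 fell by 1.14 (SE 0.16) and Foxo1, the factor that insulin keeps out of the nucleus, by 1.62 on the log2 scale (SE 0.15). Of 19 genes of the list, 8 were lower and 3 higher. Socs2, a feedback inhibitor of growth hormone signalling, was among the 12 largest decreases, from 75.2 ± 20 to 10.5 ± 1.85 CPM (-2.84, SE 0.18, adjusted p = 4.8e-10).

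Adipokines and genes of white-like adipocytes had 4 of 12 tested members lower and 1 higher, and the 4 were abundant. Cfd, the serine protease adipsin, measured 2066, 1515, 1881, 1295 and 2064 CPM after 6 hours and 211, 527, 400, 293 and 208 CPM after 5 days (log2FC -2.42, SE 0.21, adjusted p = 2.6e-08). Car3, a carbonic anhydrase of lipid-filled adipocytes, fell from 3047 ± 830 to 844 ± 427 CPM (-1.85, SE 0.23), Adipoq, adiponectin, from 687 ± 67.5 to 417 ± 65.3 CPM (-0.71, SE 0.11), and Nnmt, a nicotinamide methyltransferase, from 219 ± 33.8 to 50.5 ± 24.2 CPM (-2.11, SE 0.21). Lep, leptin, missed the filter on counts and is described by exact test only: its means were 2.87 ± 1.84 and 1.10 ± 0.560 CPM (exact two-sided permutation test, p = 0.0238, n = 5 each, 0.00794 being the smallest p this design allows). The summed level of the 14 genes found was 5191 to 7719 CPM after 6 hours and 1596 to 2987 CPM after 5 days, with the highest 5-day value in 5-day mouse 2. iBAT was trimmed of white fat by hand, and the part of remaining white fat in this result was not tested.

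Secreted factors of brown fat gained 4 of 16 (25%, against 19% of all genes) and lost 5 (31.2%, against 16.9%). Bmp8b, a TGFβ family ligand known to raise the response of brown fat to noradrenaline, measured 1.30, 0.697, 1.12, 0.944 and 0.911 CPM after 6 hours and 38.0, 12.1, 17.7, 26.6 and 45.4 CPM after 5 days, 27.8-fold higher (log2FC 4.80, SE 0.38, adjusted p = 6.1e-09). Its group mean was 0.0707 CPM at RT and 28.0 CPM after 5 days, and each group mean in between was above that of the shorter exposure. At its 6-hour level, Bmp8b could pass the filter on counts through the 5-day group alone. Ptgds, a prostaglandin D synthase, rose from 1.12 ± 0.599 to 12.2 ± 1.73 CPM (3.42, SE 0.30). Fgf9 fell from 18.1 ± 5.49 to 5.23 ± 0.519 CPM (-1.78, SE 0.22) and Nrg4, a neuregulin of brown fat, from 120 ± 7.64 to 78.6 ± 10.9 CPM (-0.60, SE 0.11). Gdf15, a stress-induced hormone, was called (2.45, SE 0.64, adjusted p = 0.00491), but only 5-day mice 1 and 5, at 45.8 and 34.2 CPM, were above all 6-hour mice. Fgf21 missed the filter and did not differ beyond the spread (1.25 ± 0.813 and 3.52 ± 2.86 CPM, exact two-sided permutation test, p = 0.119, n = 5 each).

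In serine, one-carbon and purine metabolism, 6 of 21 tested members were higher and 5 lower, near the shares of all genes. Gmpr, GMP reductase, measured 2094, 3613, 2972, 4045 and 3579 CPM after 6 hours and 1142, 659, 951, 660 and 905 CPM after 5 days (log2FC -1.91, SE 0.17, adjusted p = 4.0e-08), with an RT mean of 95.4 CPM. Impdh1, which runs the opposite step towards guanine nucleotides, fell from 68.0 ± 2.96 to 20.7 ± 3.46 CPM (-1.71, SE 0.12, adjusted p = 2.0e-09), with an RT mean of 137 CPM. Among the higher members were Psph of serine synthesis (1.95, SE 0.21) and Ampd3, an AMP deaminase (1.42, SE 0.17).

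Vascular markers were lower in part. Of 16 endothelial markers, all tested, 7 were lower and none higher (median log2FC -0.41), among them Kdr, the main VEGF receptor (264 ± 30.9 to 156 ± 31.8 CPM, -0.75, SE 0.13), and Pecam1 (-0.91, SE 0.17). Cdh5, the endothelial cadherin, was not called (59.0 ± 6.82 and 52.8 ± 9.19 CPM). The count of 7 was 4 without 6-hour mouse 2 or 3 or 5-day mouse 4 or 5. The summed level of the endothelial list was 733.7 to 875.0 CPM after 6 hours and 444.8 to 648.2 CPM after 5 days. At RT it was 484.7 to 575.3 CPM, below every 6-hour mouse and within the 5-day range. Of 8 mural cell markers, 5 were lower, among them Acta2, smooth muscle actin (-1.29, SE 0.14), and 1, Cspg4, was higher (0.64, SE 0.13). Of 19 tested collagen chains, 4 were higher and 3 lower (21.1% and 15.8%), near the shares of all genes (19% and 16.9%). The first count was 8 without 5-day mouse 3. Col5a3 and Col5a2, minor fibrillar chains, rose (1.43, SE 0.17, and 0.79, SE 0.23), the basement membrane chains Col4a1 and Col4a2 fell (-0.61 and -0.58), and Col1a1 and Col3a1, the main fibrillar chains, were not called, at 88.2 ± 19.6 against 114 ± 40.5 CPM and 143 ± 28.1 against 177 ± 72.2 CPM. Both were higher without 5-day mouse 3 (0.53 and 0.49, adjusted p = 0.0199 and 0.0261). The shared progenitor marker Pdgfra was at 9.68 ± 1.91 and 9.23 ± 2.19 CPM and was not called.

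Markers of tissue beside the fat pad were checked over whole lists. Summed skeletal muscle markers were 57.38 to 963.5 CPM after 6 hours and 295.6 to 453.6 CPM after 5 days, and 1 of 15, Tpm2, was called (lower, adjusted p = 0.0411), a call lost without 6-hour mouse 1, 2 or 3 or 5-day mouse 1, 3, 4 or 5 (adjusted p = 0.0517 to 0.22). Summed erythroid markers were 2204 to 3974 CPM after 6 hours and 2709 to 4980 CPM after 5 days, with 2 of 5 tested, Hbb-bs and Hbb-bt, called higher. Most B and T cell markers missed the filter, and Cd79a was at 0 in all 10 libraries; Ighm, the immunoglobulin M heavy chain, was the one tested member and rose from 4.91 ± 1.85 to 14.4 ± 3.16 CPM (log2FC 1.57, SE 0.25).

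Interferon-stimulated genes were higher almost throughout. Of 19 tested, 17 were higher and none was lower, with a median log2FC of 2.38. Members at low 6-hour levels, such as Irf7, could pass the filter on counts through the 5-day group alone. This count and median are therefore a description of the members that passed. Rsad2, which encodes the antiviral protein viperin, measured 14.3, 8.59, 14.1, 6.61 and 12.4 CPM after 6 hours and 278, 61.1, 30.6, 94.6 and 367 CPM after 5 days (3.89, SE 0.50, adjusted p = 4.0e-06). Irf7, a master factor of the interferon response, measured 1.04, 1.16, 0.670, 1.18 and 0.364 CPM after 6 hours and 27.9, 7.06, 4.31, 18.8 and 37.0 CPM after 5 days (4.44, SE 0.55, adjusted p = 2.3e-06). Every 5-day mouse was above every 6-hour mouse for both, yet the 5-day mice themselves spanned from 30.6 to 367 CPM for Rsad2. Its group means were 24.4 CPM at RT, 13.5 CPM at 1 day, 38.6 CPM at 2 days, 283 CPM at 3 days and 199 CPM at 4 days, so the 5-day mean of 166 CPM was not the highest.

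Macrophage markers were higher in most cases. Of 21 macrophage and monocyte markers 16 passed the filter on counts, of which 11 were higher and 2 lower (median log2FC 0.81). The shares were 68.8% and 12.5%, against 19% and 16.9% of all genes. Members at low 6-hour levels, such as Cd68, could pass through the 5-day group alone, so this too describes the members that passed. Cd68, a lysosomal membrane protein of macrophages, rose from 2.28 ± 1.37 to 10.9 ± 6.17 CPM (2.24, SE 0.44, adjusted p = 4.3e-04), and Lyz2, lysozyme, measured 17.5, 29.3, 28.2, 22.7 and 25.9 CPM after 6 hours and 60.5, 53.4, 35.1, 79.5 and 85.1 CPM after 5 days (1.35, SE 0.19, adjusted p = 1.4e-05). The 2 lower ones were Cd163, a scavenger receptor of resident macrophages (-0.79, SE 0.22), and Mertk, which clears apoptotic cells (-0.65, SE 0.20). Resident macrophage markers did not move as one: Mrc1, which the study lists for resident macrophages, was among the 11 higher ones.

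Of 15 lipid-associated macrophage markers 10 passed the filter on counts, of which 7 were higher (70%, against 19% of all genes) and none lower. Members at low 6-hour levels, such as Gpnmb, could pass through the 5-day group alone. This count is therefore a description of the members that passed. Lgals3, galectin 3, measured 11.2, 11.4, 9.61, 6.37 and 11.5 CPM after 6 hours and 124, 43.2, 12.3, 56.8 and 200 CPM after 5 days (log2FC 3.13, SE 0.47, adjusted p = 2.7e-05). Gpnmb, a glycoprotein of phagocytes, measured 2.09, 0.465, 1.79, 2.6 and 1.64 CPM after 6 hours and 27.7, 6.40, 2.15, 7.25 and 31.0 CPM after 5 days (3.12, SE 0.57, adjusted p = 2.2e-04), and here 5-day mouse 3 lay inside the 6-hour range. Trem2, the lipid receptor, and Spp1, osteopontin, missed the filter: their 6-hour libraries held 2 and 1 counts in all, and the exact two-sided permutation tests gave p = 0.119 and p = 0.444 (n = 5 each). Plin2, Fabp5 and Lipa of this list are also expressed by adipocytes.

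Proliferation genes were at low levels. Only 4 of 22 mitosis genes passed the filter on counts, which they could do through the 5-day group alone, so their levels are given as a description. Top2a, the topoisomerase of dividing cells, measured 1.30, 2.56, 1.56, 1.89 and 3.64 CPM after 6 hours and 21.6, 15.0, 3.66, 10.6 and 19.3 CPM after 5 days, so that 5-day mouse 3 was just above the highest 6-hour mouse. Mki67, the proliferation antigen, was at 0.651 ± 0.400 CPM after 6 hours and 8.40 ± 2.55 CPM after 5 days. Birc5, survivin, missed the filter at 0.261 ± 0.169 and 2.79 ± 2.21 CPM (exact two-sided permutation test, p = 0.0397, n = 5 each). With no filter on counts, 17 of the 22 mitosis genes were called higher and none lower. In that setting 2092 of all 25720 genes tested were called higher and 1839 lower. At these levels the calls rest on few counts. Of 13 tested replication genes, 5 were higher, among them Mcm7 of the replicative helicase (1.46, SE 0.26), none was lower and 8 were not called.

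Interferon and macrophage genes shared an order among the 5-day mice. 5-day mouse 5 was the highest of its group for 14 of the 19 tested interferon-stimulated genes and 9 of the 16 tested macrophage markers, and 5-day mouse 3 was the lowest for 15 and 11 of them. Over all genes tested, these mice were highest and lowest for 19.1% and 19%. 5-day mouse 1 was highest for another 5 interferon-stimulated genes. The order was less clear for the 10 tested lipid-associated macrophage markers, where mouse 5 was highest for 5 and mouse 1 lowest for 4, and for the 17 tested cell cycle genes, where mice 1 and 5 were highest for 6 each and mouse 3 lowest for 8. Without 5-day mouse 5, 16 interferon-stimulated genes were called higher and none lower.

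**Figure D5:**
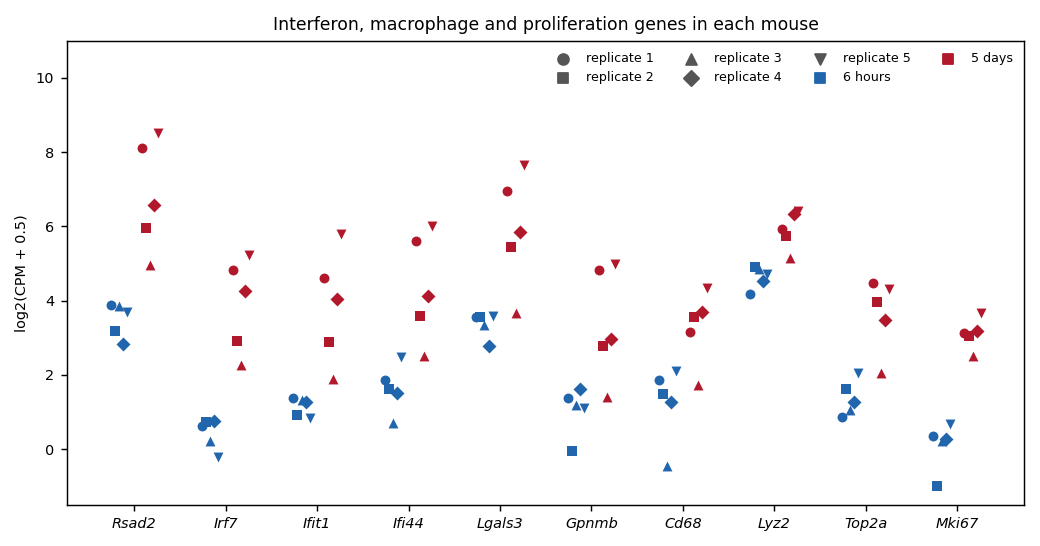
Level of 10 interferon, macrophage and proliferation genes as log2(CPM + 0.5) in each mouse; colour gives the group (6 hours blue, 5 days red) and marker shape the replicate number, which does not link mice of different groups. 5-day mouse 3 (upward triangle) is the lowest red point for all 10 genes, and 5-day mouse 5 or 1 is the highest for all 10.

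Antigen presentation was split by class. Of 9 tested class I genes 5 were higher and none lower, among them B2m, the light chain of class I (log2FC 0.82, SE 0.16), and Psmb9 (1.23, SE 0.24). Of 5 tested class II genes none was higher and 2 were lower, Cd74, the invariant chain (-0.64, SE 0.18), and H2-Eb1 (-0.53, SE 0.13). Of 19 chemokines 10 passed the filter on counts. Of these, 4 were higher (40%, against 19% of all genes), including Ccl8 (2.94, SE 0.51) and Cxcl9 (1.69, SE 0.29), and 2 were lower (20%, against 16.9%). Lysosomal genes had 9 of 24 higher and 2 lower, led by the protease Ctss (10.4 ± 1.55 to 42.9 ± 24.0 CPM, 2.05, SE 0.31).

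Several of the largest differences lay outside the pathways above. Gm32468, a long noncoding RNA (chr10:93084206-93093727), had 2 counts over the 5 6-hour libraries and 14.9, 27.1, 36.0, 37.2 and 31.8 CPM in the 5-day mice; the ratio was 321 (95% exact interval 88.5 to 2650, counting error only). Its group means grew from 0.632 CPM at RT and 0.853 CPM at 1 day to 10.6, 20.1 and 25 CPM at 2, 3 and 4 days. Gm15241 (chrX:160488549-160499870, minus strand), an antisense RNA whose exons overlap Adgrg2, measured 1.04, 1.39, 7.15, 1.89 and 1.46 CPM after 6 hours and 49.7, 58.5, 85.7, 116 and 74.8 CPM after 5 days (log2FC 4.88, SE 0.33, adjusted p = 1.1e-09).

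Sorl1, a sorting receptor of the endosome, rose from 6.61 ± 2.04 to 100 ± 22.9 CPM (log2FC 3.94, SE 0.19, adjusted p = 2.2e-11), Ttc25, a docking protein of ciliary dynein, from 1.84 ± 0.841 to 41.2 ± 17.1 CPM (4.45, SE 0.30), and Cpne5, a calcium-dependent membrane-binding protein, from 2.63 ± 2.37 to 45.0 ± 11.4 CPM (4.08, SE 0.32). The 1-day means were 53.4 CPM for Sorl1, 22.9 CPM for Ttc25 and 56.5 CPM for Cpne5, so Cpne5 alone of the 3 had a 1-day mean above its 5-day mean.

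Among the other losses, Aqp1, a water channel, measured 184, 181, 175, 135 and 165 CPM after 6 hours and 19.7, 36.6, 22.4, 18.0 and 22.9 CPM after 5 days (log2FC -2.81, SE 0.16, adjusted p = 8.7e-11). Its RT mean was 180 CPM, so the 6-hour group was at the control level and the 5-day group was below it. Slc7a8, an amino acid transporter, fell from 45.4 ± 7.80 to 8.14 ± 3.29 CPM (-2.48, SE 0.20), and Timp4, a metalloproteinase inhibitor, from 71.8 ± 6.27 to 13.2 ± 5.83 CPM (-2.43, SE 0.20). The noncoding 3930402G23Rik (chr8:10924427-10928696), on the chromosome segment of Irs2 (chr8:10984681-11008458), fell from 36.7 ± 8.56 to 5.12 ± 1.75 CPM (-2.84, SE 0.21), and Irs2 itself was described above. Exons of 56 of 179 genes named here overlap exons of a gene on the opposite strand in the GENCODE annotation, among them Bmp8b, Nr1d1, Irf7, Dio2, Irs2, Arntl, Elovl3, Gmpr, Adrb3, Sorl1 and Cpne5. The strand setting of the counting is not given in the sources used here, so reads of such partners may be shared.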

How the data were processed

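RNA was extracted from one flash-frozen iBAT pad per mouse, trimmed of white fat, and libraries were made with a kit that reads the 3′ ends of polyadenylated transcripts. The authors deposited whole-number read counts per gene; per the labels' processing notes and the methods, reads were aligned with STAR 2.6.1d to GRCm38 and counted with HTSeq 0.11.2. Counts from transcript ends compare a gene between mice, and levels of different genes only loosely.

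The 5 libraries of each duration were compared with edgeR 4.0.16 (R 4.3.3), using filterByExpr, TMM factors and the quasi-likelihood test without the replicate number, with Benjamini-Hochberg adjustment at 0.05 over the 10294 genes that passed. Enough counts in the libraries of 1 group let a gene pass the filter, whatever its level in the other group. Displayed CPM used TMM factors over all 35 libraries. Genes that missed the filter were tested by an exact two-sided permutation of log2(CPM + 0.5) over 252 splits. On simulated counts for this comparison (10079 genes in the step), edgeR recovered 91 of 100 genes changed by 1 on the log2 scale and 100 of 100 changed by 2, with 16 false calls. The 200 changed genes were drawn from those with a mean above 5 CPM, so recovery at lower levels was not tested. Far more genes, 3687, were called in the real comparison.

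The comparison, its gene lists and the named genes were chosen with earlier results of these data known. Named genes were a subset of 4 sets: the 12 largest called changes in each direction with a symbol, at least 50 mean counts and no overlap between groups; key genes of each of 49 lists; up to 3 called members per list role and direction with at least 20 mean counts; and the genes labelled on a heatmap of the study. Genes named only to identify the members behind a small count were chosen after their values were seen.

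Symbols and exon overlaps came from GENCODE annotation of GRCm38, and promoter windows from RefSeq. Alternatives were RLE factors, library size alone, removal of mitochondrially encoded genes and Gm42418, other filters, DESeq2 1.42.0, all 7 groups in one fit, a replicate block, and leaving out each library. Nothing in the sources ties equal replicate numbers to each other. Replicates are separate mice. Some genes of the lists are counted but not reported by name here.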

Additional observations from a re-analysis of the deposited data

Results flagged for a closer look

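In 20 of 360 groups of 5 mice, one mouse stood apart from the other 4 by Dixon's criterion. Chance flags about 1 in 20 groups, so this total is close to what chance alone gives. 6-hour mouse 2 accounted for 8 of the 20 flags. In this mouse Ddit4 and Per1 were high, at 66.9 CPM against 33.7 to 40.7 CPM and 39.7 CPM against 28.6 to 31.2 CPM in the other 6-hour mice. Irs1 (17.9 CPM), Pygl (79.7 CPM), Slc25a1 (54.4 CPM), Ttc25 (0.465 CPM) and Mki67 (0 CPM) were low in it, and Spp1 was at 0.232 CPM, where the other 6-hour mice were at 0.

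Ucp1 was high in 6-hour mouse 5, at 8938 CPM, while Lipe (475 CPM) and Psmb9 (4.55 CPM) were low in it. In 6-hour mouse 3, Gm15241 (7.15 CPM) and Gm32468 (0.447 CPM) were high, and in 6-hour mouse 1 Fgf9 (8.86 CPM) was low. After 5 days, mouse 4 was low for Dio2 (193 CPM), Arntl (1.96 CPM) and Acta2 (9.4 CPM), mouse 2 was high for Car3 (1603 CPM) and Gpx3 (381 CPM), and mouse 3 was low for Tsc22d3 (15.3 CPM).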

How the results depend on the processing

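The counts of 1952 genes higher and 1735 lower stayed within 1.5 times under every alternative run, and no gene called in the main comparison was called in the opposite direction. Library size alone gave 1658 higher and 1856 lower, moving the higher share of calls from 52.9% to 47.2%. DESeq2 gave 2026 and 1796, and all 7 groups in one fit gave 2113 and 2007. Leaving out one library gave 1733 to 1909 higher and 1503 to 1709 lower. With the replicate number as a block, 1911 genes were higher and 1699 lower, but same-numbered mice did not deviate together (correlations of -0.036 to 0.035), so the block is not a pairing. Of 174 named genes tested under the alternatives, 161 kept their call and sign under all of them. Leaving out one library, the log2FC of Dgat2, which was not called, ran from -0.00 to 0.20, and that of Pdgfra, also not called, from -0.21 to 0.02. Calls were also lost with DESeq2 for Pdk4, Mt2 and Tpm2 (adjusted p = 0.0668, 0.107 and 0.168), with all 7 groups in one fit for Mt2, Psmb8, Tpm2 and Pfkp (0.0754, 0.0563, 0.189 and 0.0543), with library size alone for Rpl38 (0.0735), with no filter for Rpl38 and Pfkp (0.0803 and 0.0565), and with the replicate block for Tpm2 (0.0514). Col1a1 and Col3a1 were called higher with no filter (0.0147 and 0.0462). Depth limits the genes under a few CPM, such as Trem2, Spp1 and most mitosis genes, for which a difference was not detectable or rests on few counts.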
